A study of Mus musculus with 11 samples.

Results

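The 7 genes of glucose uptake and phosphorylation described in sorted mouse β-cells were the glucose transporter genes Slc2a2 (Glut2), Slc2a1 (Glut1) and Slc2a3 (Glut3), the hexokinase genes Hk1 and Hk2, and the glucose-6-phosphatase catalytic subunit genes G6pc2 and G6pc3. They were chosen by name, from their place at the entry of glucose metabolism and with earlier results of these data known, and are 7 of the 34728 gene symbols measured. Of the 7, 4 were expressed highly enough for the test across all 11251 genes, and 1 of these fell in both mutant groups, in comparisons that called 0.969% (diabetic) and 0.551% (euglycemic) of all genes. Slc2a2 averaged 75.6 FPKM (fragments per kilobase of transcript, scaled to the mapped fragments of the library) in control cells, 17.5 FPKM in diabetic mutant cells and 21.7 FPKM in mutant cells from mice kept euglycemic with insulin. Slc2a1, G6pc2 and G6pc3 did not pass, while Slc2a3 and Hk1 were near 0 in control cells and stayed below 1 FPKM in every library.

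β-cells sense glucose by how fast they take it up and phosphorylate it. Glut2 is a low-affinity, high-capacity transporter, so that uptake in rodent β-cells follows blood glucose, whereas Glut1 and Glut3 have a lower Km and are near saturation at ordinary glucose concentrations. Hexokinases trap glucose in the cell as glucose-6-phosphate, Hk1 and Hk2 encode high-affinity forms that their product inhibits, and Hk1 is among the genes that mature β-cells normally keep almost silent. G6PC2, the islet-restricted glucose-6-phosphatase subunit, returns glucose-6-phosphate to glucose in the endoplasmic reticulum, and G6PC3 is its broadly expressed relative.

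RNA was sequenced from GFP+ cells sorted from the islets of 8-week-old mice on a C57BL/6 x 129SV background, in 11 libraries. The control group (WT, n = 3) carried the rat insulin promoter Cre transgene (RIP-Cre) and a Rosa26 GFP reporter with intact Raptor. Diabetic βRapKOGFP mice (n = 4) carried the same transgene and reporter with Raptor, an essential subunit of the kinase complex mTORC1, deleted by that Cre, and had no insulin pellet. Euglycemic βRapKOGFP mice (n = 4) had the same deletion and an insulin pellet for 4 weeks. All groups thus carried Cre and GFP, the deletion was present from when the insulin promoter became active, and GFP marks every cell in which this promoter has driven Cre, whatever hormone the cell makes at 8 weeks. The comparison of each mutant group with WT asks what the deletion changed with and without hyperglycemia, and that between the mutant groups asks what insulin treatment changed. The sources used here do not say whether each library came from 1 animal, so p-values measure the spread between these samples.

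Rptor, the targeted gene, averaged 1.37 ± 0.422 FPKM (SD, n = 3) in WT, 0.690 ± 0.229 (n = 4) in diabetic and 0.491 ± 0.0909 (n = 4) in euglycemic libraries, without overlap between WT and either mutant group, although the lowest WT library (0.948 FPKM) and the highest diabetic library (0.937 FPKM) were close. The two-sided exact permutation p was 0.0571 for diabetic against WT, 0.0286 for euglycemic against WT and 0.00606 for both against WT. The libraries held an estimated 9506156 to 16659222 fragments, the fewest in euglycemic replicate 4. The 8 β-cell markers were all above 0 in every library, with summed FPKM of 157163 to 191145 in WT, 137917 to 206351 in diabetic and 116847 to 202061 in euglycemic libraries. Markers of other cell types differed between the groups. The 8 α-cell markers summed to 1054 to 2444 FPKM in WT, 3938 to 14723 in diabetic and 4763 to 23771 in euglycemic libraries. The 9 endothelial markers summed to 0.0487 to 1.90 FPKM in WT, 10.2 to 53.0 in diabetic and 0.0436 to 2.84 in euglycemic libraries, with Cdh5, Kdr, Tek and Eng at 0 in all WT libraries. Diabetic replicate 1 had the highest endothelial sum and the highest stellate cell sum.

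The promoters of 4 of the genes are shown because these genes carry the contrasts described next: Slc2a2, which fell, its low-Km counterpart Slc2a1, Hk1, which was listed at or near 0 in WT, and G6pc2, the most abundant of the 7. Each sequence holds the 250 bases before and 50 bases after a RefSeq start site on GRCm38.p6, on the strand of the gene. Capitals mark TAAT, the core bound by homeodomain factors, and ACGTG or GCGTG, the core of the hypoxia response element, each on either strand. The windows are chr3:28697653-28697952 on the plus strand (Slc2a2), chr4:119108495-119108794 on the plus strand (Slc2a1), chr10:62340372-62340671 on the minus strand (Hk1) and chr2:69210823-69211122 on the plus strand (G6pc2).
Slc2a2: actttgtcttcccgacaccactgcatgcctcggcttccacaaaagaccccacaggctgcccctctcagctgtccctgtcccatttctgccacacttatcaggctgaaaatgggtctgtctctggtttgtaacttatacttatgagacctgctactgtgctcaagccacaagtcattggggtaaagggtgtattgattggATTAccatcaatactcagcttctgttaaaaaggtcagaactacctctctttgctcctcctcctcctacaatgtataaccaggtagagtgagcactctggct
Slc2a1: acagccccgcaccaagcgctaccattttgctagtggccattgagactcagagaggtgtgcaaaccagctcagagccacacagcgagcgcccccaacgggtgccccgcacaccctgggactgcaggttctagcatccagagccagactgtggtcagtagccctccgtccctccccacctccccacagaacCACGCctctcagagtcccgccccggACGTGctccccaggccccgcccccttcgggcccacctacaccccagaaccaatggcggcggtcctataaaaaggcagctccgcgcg
Hk1: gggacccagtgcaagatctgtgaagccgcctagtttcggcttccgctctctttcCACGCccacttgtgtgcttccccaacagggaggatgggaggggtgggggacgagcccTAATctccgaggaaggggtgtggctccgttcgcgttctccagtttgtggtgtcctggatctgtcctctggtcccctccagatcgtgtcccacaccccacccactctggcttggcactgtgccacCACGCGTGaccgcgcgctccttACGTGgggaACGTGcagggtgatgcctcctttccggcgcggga
G6pc2: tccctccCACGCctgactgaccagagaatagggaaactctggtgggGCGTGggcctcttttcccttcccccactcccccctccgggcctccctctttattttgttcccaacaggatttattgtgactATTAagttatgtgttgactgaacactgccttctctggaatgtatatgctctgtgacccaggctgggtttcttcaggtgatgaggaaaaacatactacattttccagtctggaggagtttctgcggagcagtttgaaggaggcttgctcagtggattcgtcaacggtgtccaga

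The printed Slc2a2 window has fewer G, C and CpG than those printed for Slc2a1 and Hk1. It has 48.0% G and C with 2 CpG dinucleotides, against 65.3% with 18 CpG for Slc2a1, 63.3% with 20 CpG for Hk1 and 67.3% with 25 CpG for Hk2, whose sequence is not shown. Over the 32851 promoters of the same length the median was 52.7% G and C and 7 CpG. G6pc2 is near that median, at 50.7% with 6 CpG, and the G6pc3 promoter has 59.7% with 20 CpG. TAAT occurs 1 time in each of the Slc2a2, Hk1, G6pc2 and G6pc3 windows, 3 times at the second G6pc2 start and not in the Slc2a1 and Hk2 windows, and 58.0% of all promoters hold it. ACGTG occurs 1 time in Slc2a1, 2 times in Hk1, 2 times in Hk2, 4 times in G6pc3 and 1 time at the second G6pc2 start, and 19.6% of all promoters hold it. The 4 ACGTG matches in G6pc3 all lie in the palindrome CACGTG, which occurs 2 times there and matches on both strands. GCGTG occurs 3 times in this Hk1 window, 2 times in that of G6pc2 and 1 time each in those of Slc2a1 and G6pc3, with 32.4% of all promoters holding it. Slc2a1 also has 1 TATAAA, held by 13.6% of promoters. These are letter matches only. RefSeq gives a second start for Hk1, at the 5′ end of the gene, and a second start for G6pc2. The second Hk1 window has 51.3% G and C and 1 CpG, and holds no TAAT, ACGTG or GCGTG.

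On GRCm38 (GENCODE vM21) the 7 genes are protein-coding genes on 6 chromosomes. Slc2a2 (ENSMUSG00000027690) spans chr3:28697903-28731359, Slc2a1 (ENSMUSG00000028645) chr4:119108711-119137983, Slc2a3 (ENSMUSG00000003153) chr6:122727809-122801640, Hk1 (ENSMUSG00000037012) chr10:62268855-62379908, Hk2 (ENSMUSG00000000628) chr6:82725025-82774454, G6pc2 (ENSMUSG00000005232) chr2:69211073-69227841 and G6pc3 (ENSMUSG00000034793) chr11:102189620-102194081. An antisense gene, Gm12868, overlaps 2.99% of the Slc2a1 exon bases, and the antisense gene Hk1os overlaps 1.84% of those of Hk1. The libraries do not mark strand, so reads in these overlaps cannot be assigned to either gene. Of the 50-base stretches of all annotated transcripts of each gene, at most 1.54% also occur in another gene (Slc2a1), and none occurs in another of the 7.

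Slc2a2 fell in both mutant groups. It encodes Glut2, the main glucose transporter of rodent β-cells. In the WT libraries it was at 69.7, 87.0 and 70.0 FPKM, in the diabetic libraries at 16.3, 13.1, 21.4 and 19.4 FPKM, and in the euglycemic libraries at 29.6, 18.9, 24.5 and 14.05 FPKM. All 8 mutant libraries were below all 3 WT libraries, and the mutant groups overlapped each other. The group means were 75.6 ± 9.89 (SD, n = 3), 17.5 ± 3.60 (n = 4) and 21.7 ± 6.75 FPKM (n = 4), so that the diabetic mean was 23.2% and the euglycemic mean 28.8% of the WT mean. On the log2(FPKM + 1) scale the change from WT was -2.06 ± 0.25 (SE) in diabetic cells (limma, Benjamini-Hochberg adjusted p = 0.00254) and -1.79 ± 0.25 in euglycemic cells (limma, adjusted p = 0.00712). A gene was called at an adjusted p of at most 0.05 with a fold of at least 1.5. Of the 11251 genes tested, 0.969% were called in the diabetic comparison (0.498% lower) and 0.551% in the euglycemic comparison (0.196% lower). Slc2a2 was the only 1 of the 4 testable members among them, ranking 6 and 11 by p over all genes. For both mutant groups together against WT, its change was -1.93 ± 0.22 (adjusted p = 0.00136, rank 7 by p), in a comparison that called 1.05% of genes.

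Insulin treatment was not accompanied by a detectable difference in Slc2a2. The diabetic minus euglycemic difference was -0.27 on the log2(FPKM + 1) scale, with a 95% interval of -0.77 to 0.23 (limma, adjusted p = 0.523), in a comparison that called 0.00889% of genes. The interval leaves room for a level in diabetic cells lower or somewhat higher than in euglycemic cells. In bulk samples, fewer cells that express Slc2a2 and less Slc2a2 RNA per cell cannot be told apart. The summed levels of α-cell, δ-cell, PP-cell, duct and leukocyte markers were each higher in every mutant library than in every WT library, and their part in the result was not tested. The β-cell marker sums of the 3 groups overlapped, but most of each sum came from the insulin genes Ins1 and Ins2, and of the 8 markers Slc30a8 was called lower in both mutant groups. The euglycemic call was lost without WT replicate 2, the highest WT library (-1.69, adjusted p = 0.0512, over all alternatives 0.000240 to 0.0531). The diabetic call held in every alternative run (adjusted p 0.000141 to 0.0258).

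**Figure D1:**
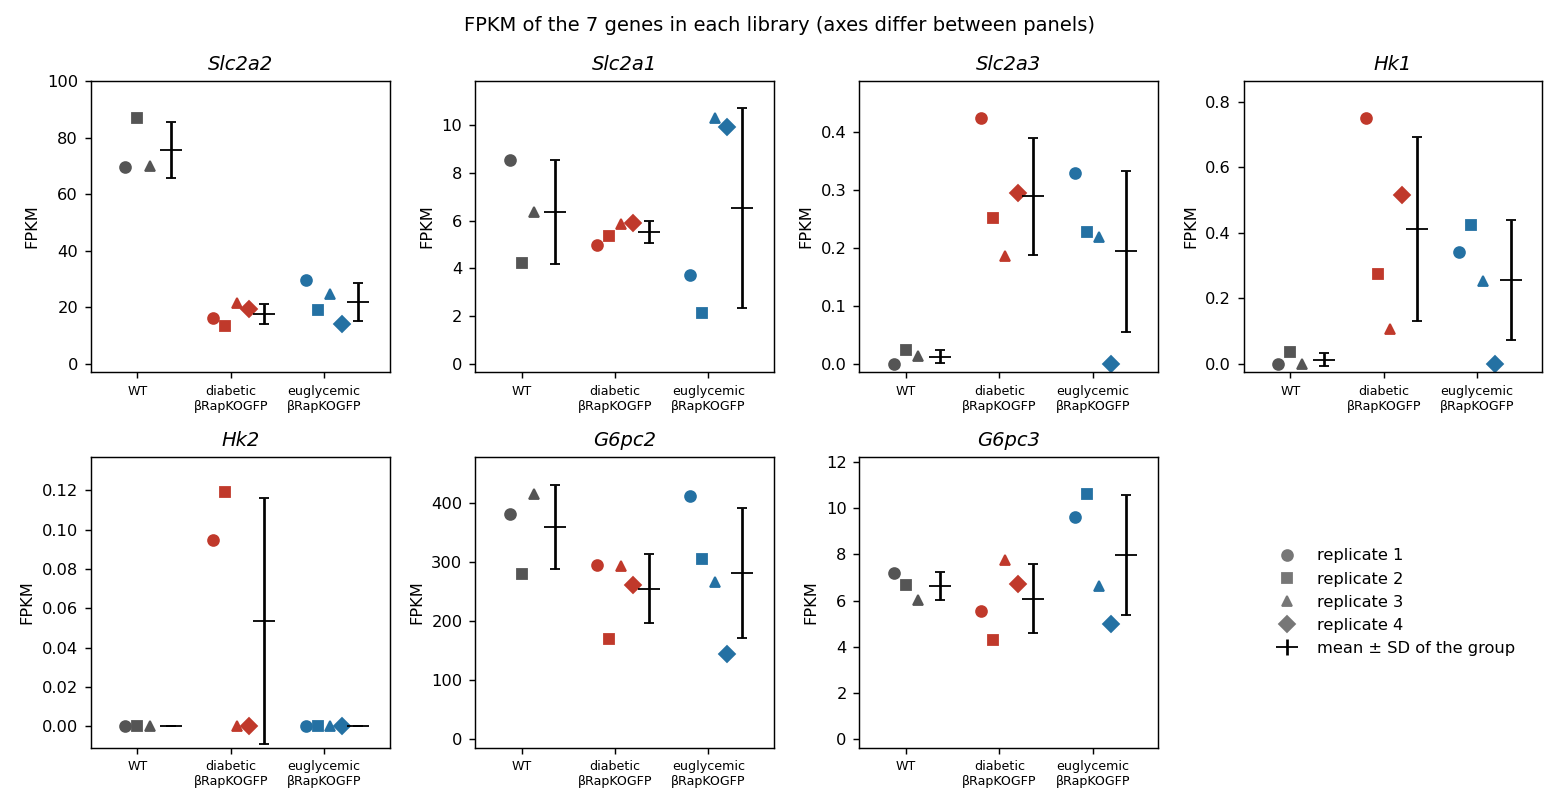
FPKM of each of the 7 genes in each library (linear axes, one panel per gene), with the group mean and SD at the right of each group. Slc2a2 was at 69.7 to 87.0 FPKM in WT and at 13.1 to 29.6 FPKM in the 8 mutant libraries, Slc2a1, G6pc2 and G6pc3 overlapped between all groups, and Slc2a3, Hk1 and Hk2 stayed below 1 FPKM.

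Slc2a1, which encodes the low-Km transporter Glut1 found in most tissues, did not pass in any comparison. It was at 8.56, 4.21 and 6.34 FPKM in WT, 4.97, 5.35, 5.86 and 5.92 FPKM in diabetic, and 3.70, 2.14, 10.3 and 9.91 FPKM in euglycemic libraries. The diabetic libraries lay close together inside the WT range. The euglycemic libraries split into a pair below all WT libraries and a pair above them. The means were 6.37 ± 2.17 (SD, n = 3), 5.52 ± 0.452 (n = 4) and 6.52 ± 4.20 FPKM (n = 4). The change on the log2(FPKM + 1) scale was -0.14 in diabetic cells (95% interval -0.98 to 0.71, limma adjusted p = 0.929) and -0.13 in euglycemic cells (-0.98 to 0.72, adjusted p = 0.903). The 2 mutant groups differed by -0.01 (-0.79 to 0.78). Each interval includes changes of more than 1.5-fold in both directions.

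Slc2a3 encodes Glut3, the high-affinity transporter best known from neurons. In WT it was at 0, 0.0231 and 0.0135 FPKM, in diabetic libraries at 0.425, 0.253, 0.185 and 0.295 FPKM, and in euglycemic libraries at 0.330, 0.228, 0.219 and 0 FPKM. All 4 diabetic libraries were above all WT libraries, as were 3 of the 4 euglycemic libraries. The exception was euglycemic replicate 4, the shallowest library, at an estimated 9506156 fragments. Diabetic replicate 2 was nearly as shallow, at 9781154 fragments, and was at 0.253 FPKM. Scaled to the longest coding transcript and the inferred depth, these levels stand for about 0 to 1.09 fragments per library in WT and 9.78 to 21.7 fragments in the 7 mutant libraries above 0. Because the gene was below the minimum of 1 FPKM in 3 libraries it was tested alone. The diabetic minus WT difference was 0.35 on the log2(FPKM + 1) scale (two-sided exact permutation p = 0.0286, the smallest that 3 against 4 allows, unadjusted, 1 of 12 such tests on Slc2a3, Hk1 and Hk2). The euglycemic difference was 0.23 (exact permutation p = 0.143), and the 2 mutant groups differed by 0.12 (exact permutation p = 0.371). Both mutant groups together differed from WT by 0.29 (exact permutation p = 0.0242), and without any 1 WT library this p was 0.0667. The highest diabetic value was in replicate 1, the library with the highest endothelial and stellate marker sums. In the diabetic comparison with WT, the smallest p that can be reached without any 1 of its libraries is above 0.05.

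The summed level of the 3 transporters was lower in both mutant groups, and the share of the low-Km forms was higher in them without a higher mean level of Slc2a1 in diabetic cells. Their summed level was 82.0 ± 8.08 FPKM (SD, n = 3) in WT, 23.3 ± 3.90 (n = 4) in diabetic and 28.5 ± 6.88 (n = 4) in euglycemic cells. Slc2a1 and Slc2a3 made up 10.9, 4.64 and 8.32% of that sum in WT, 24.9, 29.9, 22.1 and 24.3% in diabetic, and 11.99, 11.2, 30.1 and 41.4% in euglycemic libraries. All mutant libraries were above all WT libraries, with the 2 lowest euglycemic libraries just above the highest WT library. Slc2a2 stayed the most abundant of the 3 in every library. Its level was 8.15 to 20.7 times that of Slc2a1 in WT, 2.46 to 3.64 times in diabetic and 1.42 to 8.81 times in euglycemic libraries. Without Slc2a3, which rests on few fragments, the share of Slc2a1 in Slc2a1 plus Slc2a2 was 7.95, 24.3 and 23.1% as group means, but euglycemic replicate 2, at 10.2%, then lay below WT replicate 1, at 10.9%, so that the WT and euglycemic groups overlapped.

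**Figure D2:**
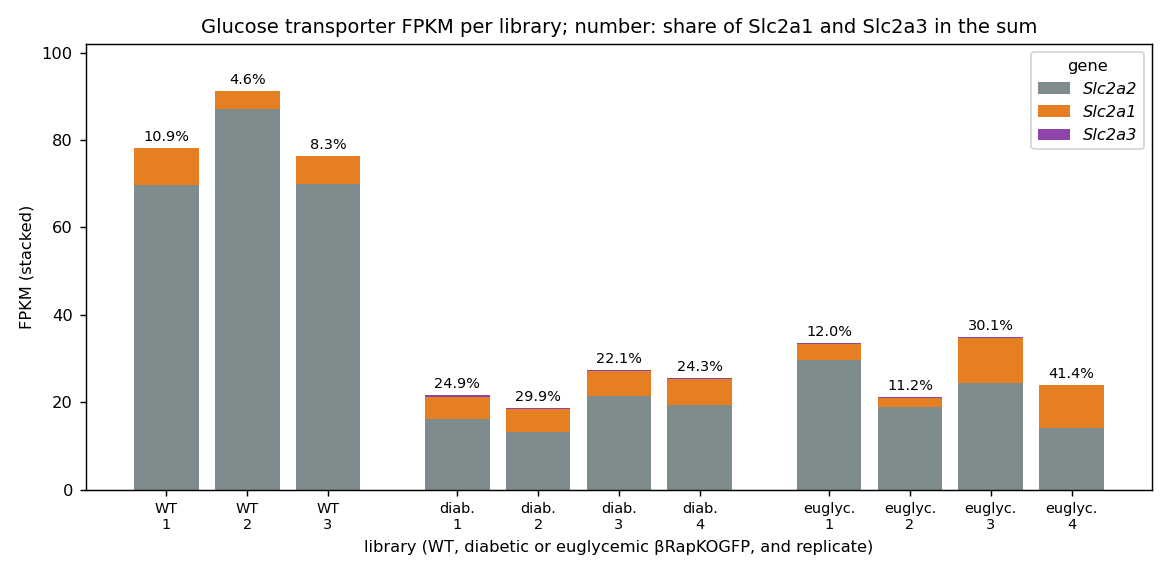
Stacked FPKM (linear axis from 0) of Slc2a2, Slc2a1 and Slc2a3 in each of the 11 libraries, with the percentage of the sum from Slc2a1 and Slc2a3 above each bar. The bars fall from 76.4 to 91.2 FPKM in WT to 18.7 to 35.01 FPKM in the mutant libraries, while the Slc2a1 segment stays between 2.14 and 10.3 FPKM.

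Hk1, which encodes the widely expressed hexokinase 1, was listed at or near 0 in WT cells. It was at 0, 0.0340 and 0 FPKM in WT, 0.750, 0.272, 0.105 and 0.513 FPKM in diabetic, and 0.339, 0.424, 0.253 and 0 FPKM in euglycemic libraries. The diabetic libraries and 3 of the 4 euglycemic libraries were above all WT libraries, and euglycemic replicate 4 was again at 0. On the longest coding transcript these are about 0 to 1.73 fragments per library in WT and 6.22 to 34.6 in the 7 mutant libraries above 0. The diabetic minus WT difference was 0.46 on the log2(FPKM + 1) scale (two-sided exact permutation p = 0.0571), the euglycemic one 0.30 (exact permutation p = 0.143), and both mutant groups together gave 0.38 (exact permutation p = 0.0545). The mutant groups differed by 0.16 (exact permutation p = 0.4). Hk1 thus passed in none of the 4 comparisons by this test. Without euglycemic replicate 4 the joint comparison gave 0.43 (exact permutation p = 0.0167).

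Hk2, the insulin- and hypoxia-responsive hexokinase of muscle and fat, was listed at 0 in all WT and all euglycemic libraries. In the diabetic libraries it was at 0.0948 and 0.119 FPKM in replicates 1 and 2 and at 0 in replicates 3 and 4. That is about 5.63 and 6.43 fragments on the longest coding transcript (diabetic against WT, exact permutation p = 0.429). Depth limits what can be said of such levels, since 1 fragment on a transcript of 1 kilobase is worth 0.0600 to 0.105 FPKM in these libraries. A low value in this table is also no sure sign of low RNA, as Gapdh, a glycolytic gene with many pseudogene copies that every cell uses, was listed at 0.512 to 1.90 FPKM.

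Markers of other cell types differed in how they ran with these low genes. Hk1 and Slc2a3 were both highest in diabetic replicate 1, where the endothelial markers summed to 53.0 FPKM and the stellate cell markers to 13.99 FPKM, both the highest of the 11 libraries. In euglycemic replicates 1, 2 and 3, Hk1 was at 0.253 to 0.424 FPKM and Slc2a3 at 0.219 to 0.330 FPKM with endothelial sums of 0.504, 2.35 and 2.84 FPKM. WT replicate 2 had an endothelial sum of 1.90 FPKM with Hk1 at 0.0340 and Slc2a3 at 0.0231 FPKM. The leukocyte markers summed to 33.3 to 41.7 FPKM in WT, 74.6 to 197 in diabetic and 55.3 to 124 in euglycemic libraries. Ptprc, Adgre1 and Itgam were at 0 in all WT libraries, and Ptprc and Itgam also in all euglycemic libraries. Of the 11 libraries only diabetic replicate 1 held Ptprc, at 0.686 FPKM. The highest leukocyte sum, 197 FPKM, was in diabetic replicate 3, which had the lowest Hk1 and Slc2a3 of the diabetic libraries, against 143 FPKM in replicate 1. The acinar markers summed to 1.76 to 29.0 FPKM in WT, and were highest, at 3155 FPKM, in euglycemic replicate 4, where Hk1, Hk2 and Slc2a3 were all at 0. Duct, δ-cell and PP-cell markers were higher in every mutant library than in every WT library. The 6 duct markers summed to 8.40 to 11.7 FPKM in WT, 23.2 to 38.6 in diabetic and 38.8 to 47.8 in euglycemic libraries. The 4 δ-cell markers summed to 1176 to 2515, 4942 to 12262 and 4864 to 13953 FPKM, and the 2 PP-cell markers to 513 to 1107, 3674 to 12980 and 4984 to 14238 FPKM. The part of endothelial, leukocyte, stellate, acinar, duct, α-, δ- and PP-cells in the Hk1, Hk2 and Slc2a3 levels was not tested.

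**Figure D3:**
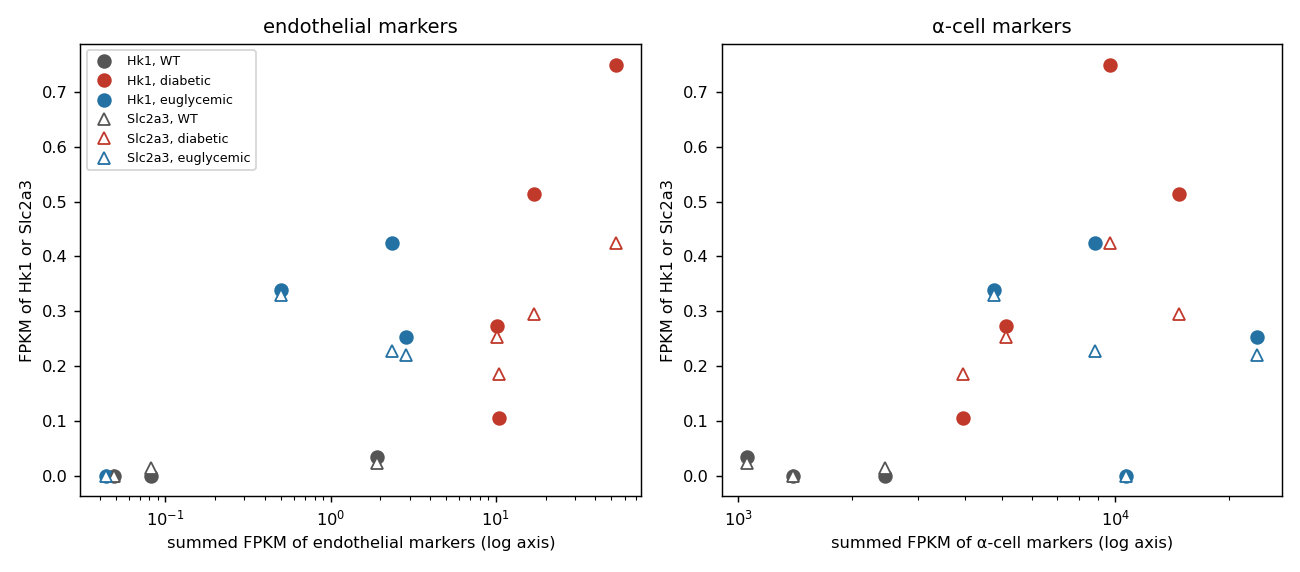
FPKM of Hk1 (filled circles) and Slc2a3 (open triangles) in each library against the summed FPKM of 9 endothelial markers (left) and 8 α-cell markers (right), both on log axes, coloured by group. The highest Hk1 value, 0.750 FPKM, is in the library with the highest endothelial sum, 53.0 FPKM, while 3 euglycemic libraries show 0.253 to 0.424 FPKM of Hk1 with endothelial sums of 0.504 to 2.84 FPKM.

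G6pc2 was by far the most abundant of the 7 in every library. It was at 381, 279 and 415 FPKM in WT, 294, 169.6, 292 and 260.0 FPKM in diabetic, and 410.3, 305, 266 and 144 FPKM in euglycemic libraries. All 3 groups overlapped, and both mutant groups had at least 1 library below all WT libraries. The means were 358 ± 70.9 (SD, n = 3), 254 ± 58.4 (n = 4) and 281 ± 110 FPKM (n = 4). The change on the log2(FPKM + 1) scale was -0.51 in diabetic cells (95% interval -1.21 to 0.19, limma adjusted p = 0.591) and -0.42 in euglycemic cells (-1.12 to 0.28, adjusted p = 0.581). Without euglycemic replicate 4, the lowest library, the euglycemic change was -0.13. The 2 mutant groups differed by -0.09 (-0.74 to 0.56). The ratio of G6pc2 to Slc2a2 levels went from 3.21 to 5.93 in WT to 12.9 to 18.1 in diabetic and 10.3 to 16.2 in euglycemic libraries, with no overlap between WT and mutants. Slc2a2, the denominator, by itself had no such overlap, so the ratio is no separate result about G6pc2.

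G6pc3 was low in all groups and did not pass in any comparison. It was at 7.20, 6.67 and 6.01 FPKM in WT, 5.55, 4.28, 7.78 and 6.73 FPKM in diabetic, and 9.63, 10.6, 6.62 and 5.003 FPKM in euglycemic libraries. The diabetic libraries fell on both sides of the WT range and overlapped it, as did the euglycemic ones. The change was -0.13 (95% interval -0.67 to 0.41, limma adjusted p = 0.890) in diabetic and 0.19 (-0.35 to 0.73, adjusted p = 0.765) in euglycemic cells, and the mutant groups differed by -0.32 (-0.82 to 0.18, adjusted p = 0.447). G6pc3 made up 1.87 ± 0.455% (SD, n = 3) of the summed G6pc2 and G6pc3 level in WT, 2.36 ± 0.341% (n = 4) in diabetic and 2.86 ± 0.576% (n = 4) in euglycemic cells. The third family member, G6pc, which encodes the liver and kidney enzyme, was listed at 0 in all 11 libraries.

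**Figure D4:**
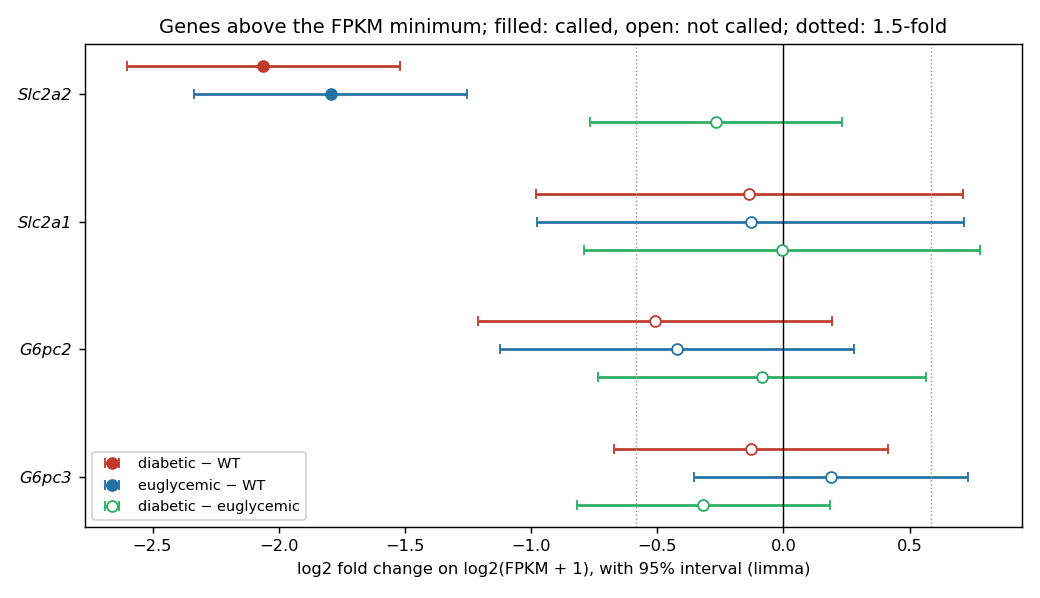
Log2 fold changes on log2(FPKM + 1) with 95% limma intervals for the 4 genes above the FPKM minimum, in the 3 pairwise comparisons (diabetic minus WT, euglycemic minus WT, diabetic minus euglycemic), with filled points for called changes and dotted lines at 1.5-fold. Only the 2 Slc2a2 comparisons with WT, at -2.06 and -1.79, are called, and every other interval includes 0.

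In WT the order of levels by FPKM was G6pc2, Slc2a2, G6pc3, Slc2a1, Slc2a3, Hk1, Hk2. G6pc3 and Slc2a1 did not differ beyond their spread, at 6.63 ± 0.599 and 6.37 ± 2.17 FPKM, nor did Slc2a3, Hk1 and Hk2. In both mutant groups Slc2a2 kept its place, but its distance to G6pc3 and Slc2a1 became smaller. Across the 11 libraries the log2 levels of Slc2a2 and G6pc2 had a Pearson r of 0.64, G6pc2 and G6pc3 0.64, Slc2a1 and G6pc3 -0.57, and Slc2a2 and Slc2a1 0.03. These are descriptions over 11 libraries that differ together in group, depth and marker sums.

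The genes whose pattern over the 11 libraries was most like that of Slc2a2 were Slc30a8, the zinc transporter of insulin granules (r = 0.97), Haghl (r = 0.97) and Dcaf12l1 (r = 0.96). Slc30a8 averaged 682, 200.2 and 278 FPKM in WT, diabetic and euglycemic cells, Haghl 6.63, 3.11 and 3.89 FPKM, and Dcaf12l1 9.29, 3.98 and 4.56 FPKM. Each had its highest mean in WT, as Slc2a2 did. Nearest to Slc2a1 were Ate1 (r = 0.91), Inava (r = 0.91) and Pi4k2a (r = 0.89). Nearest to G6pc2 were Mccc1 (r = 0.95) and Pccb (r = 0.94), which encode subunits of mitochondrial carboxylases, and Rnf138rt1 (r = 0.93). Nearest to G6pc3 were Pgam1-ps2 (r = 0.99), whose level is uncertain because it is a pseudogene copy of Pgam1, Sirt5 (r = 0.96) and Kcnip1 (r = 0.95).

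The other genes of the pathway held no call. None of the 4 testable of the 9 other facilitative transporters was called in any of the 4 comparisons by limma, and at an unadjusted p under 0.05 none was higher or lower in diabetic cells while 1 was higher and 1 lower in euglycemic cells, where 11.9% and 13.9% of all genes passed that threshold. Slc2a5, the fructose transporter Glut5, was at 120 ± 6.46 FPKM (SD, n = 3) in WT, above Slc2a2 in each WT library. It averaged 91.1 ± 16.0 in diabetic (n = 4) and 124 ± 39.5 in euglycemic cells (n = 4), with changes of -0.41 (limma adjusted p = 0.575) and -0.02 (adjusted p = 0.982). Slc2a6 was at 2.48, 3.82 and 4.78 FPKM as group means (0.49 and 0.74, adjusted p = 0.572 and 0.302).

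Of the 7 sodium-coupled sugar transporters only Slc5a10 passed the minimum. It was at 0.607, 0.242 and 0.467 FPKM in WT, 6.09, 13.3, 9.09 and 0.740 FPKM in diabetic, and 1.69, 8.38, 0.918 and 0.0605 FPKM in euglycemic libraries. All diabetic libraries were above all WT libraries, with a wide spread, and the change of 2.18 ± 0.71 (SE) did not pass (limma adjusted p = 0.218). Because every WT library was below 1 FPKM, Slc5a10 passed the minimum through mutant libraries alone. Its change is therefore not independent of that filter. Of the 5 other kinases 2 were tested and 0 called, and at an unadjusted p under 0.05 none was higher and 1 was lower in diabetic and none higher and 1, Adpgk, lower in euglycemic cells (11.9% and 13.9% of all genes). Adpgk, an ADP-dependent kinase of the endoplasmic reticulum that phosphorylates glucose, was at 6.85, 5.96 and 3.67 FPKM as group means (-0.18 and -0.77, adjusted p = 0.871 and 0.289).

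Among 19 other genes of hexose phosphate handling, which carry glucose-6-phosphate, convert it or act on the fructose phosphates made from it, 15 were tested and 0 called, and at an unadjusted p under 0.05 none was higher and 2 were lower in diabetic cells, and 1 was higher and 2 were lower in euglycemic cells, with 11.9% and 13.9% of all genes passing that threshold. Their median change was -0.10 in diabetic and 0.03 in euglycemic cells, against 0.01 and -0.01 for all genes. Slc37a4, the transporter that carries glucose-6-phosphate to the G6PC enzymes in the endoplasmic reticulum, was at 81.8, 112 and 117 FPKM in WT, 50.6, 46.1, 68.4 and 42.9 FPKM in diabetic, and 87.0, 148, 48.2 and 47.9 FPKM in euglycemic libraries. All diabetic libraries were below all WT libraries, while the euglycemic ones lay on both sides. The change was -0.99 ± 0.35 (SE) in diabetic cells (limma adjusted p = 0.259) and -0.46 ± 0.35 in euglycemic cells (adjusted p = 0.567), so it did not pass. Fbp2, a fructose bisphosphatase, was at 0 in 6 of the 11 libraries. Its relative Fbp1, chosen after its values were seen, averaged 3.63, 2.20 and 8.42 FPKM in WT, diabetic and euglycemic cells, with changes of -0.10 and 1.40 (limma adjusted p = 0.966 and 0.278).

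The HIF-1 target list, which covers glycolytic and hypoxia-induced genes that commonly move with Slc2a1 and Hk2, had 13 of 16 genes tested and 0 called. At an unadjusted p under 0.05, 3 were higher and none lower in diabetic and 5 higher and none lower in euglycemic cells, with 11.9% and 13.9% of all genes passing that threshold. Ldha, lactate dehydrogenase A, was at 0.0793, 0.422 and 0.0804 FPKM in WT, 3.24, 1.23, 2.13 and 0.403 FPKM in diabetic, and 2.33, 1.98, 0.957 and 1.56 FPKM in euglycemic libraries (1.10 and 1.17, limma adjusted p = 0.164 and 0.152). Higd1a, a hypoxia-induced mitochondrial protein, averaged 0.321, 2.21 and 3.45 FPKM (1.14 and 1.61, adjusted p = 0.312 and 0.150). Every WT library was below 1 FPKM for both Ldha and Higd1a, so both passed the minimum through mutant libraries alone. Both are among the genes counted as higher in each comparison, and those counts are not independent of that filter. Aldoa, the most abundant of the list, averaged 83.4, 98.0 and 117 FPKM (0.24 and 0.51, adjusted p = 0.712 and 0.296).

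All 7 genes of transporter traffic and stability were tested and 0 called by limma, and at an unadjusted p under 0.05 none was higher and 2 were lower in diabetic cells and 1 was higher and none lower in euglycemic cells (11.9% and 13.9% of all genes). Txnip, a glucose-induced arrestin that promotes removal of glucose transporters from the surface, ranged from 14.02 to 233 FPKM in WT, 13.1 to 101.7 in diabetic and 5.17 to 151 in euglycemic libraries, so that all groups overlapped. Gipc1, which binds the tail of Glut1, averaged 31.8, 19.7 and 34.6 FPKM (-0.64 and 0.15, limma adjusted p = 0.245 and 0.787), with all diabetic libraries below all WT libraries. Bsg averaged 136, 156 and 184 FPKM. The list of 14 transcription factors reported at the Slc2a2 or G6pc2 promoters had 13 tested and 0 called, with a median change of -0.16 in diabetic and -0.27 in euglycemic cells, against 0.01 and -0.01 for all genes. At an unadjusted p under 0.05 none of them was higher while 2 and 3 were lower in these comparisons, with 11.9% and 13.9% of all genes passing that threshold.

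**Figure D5:**
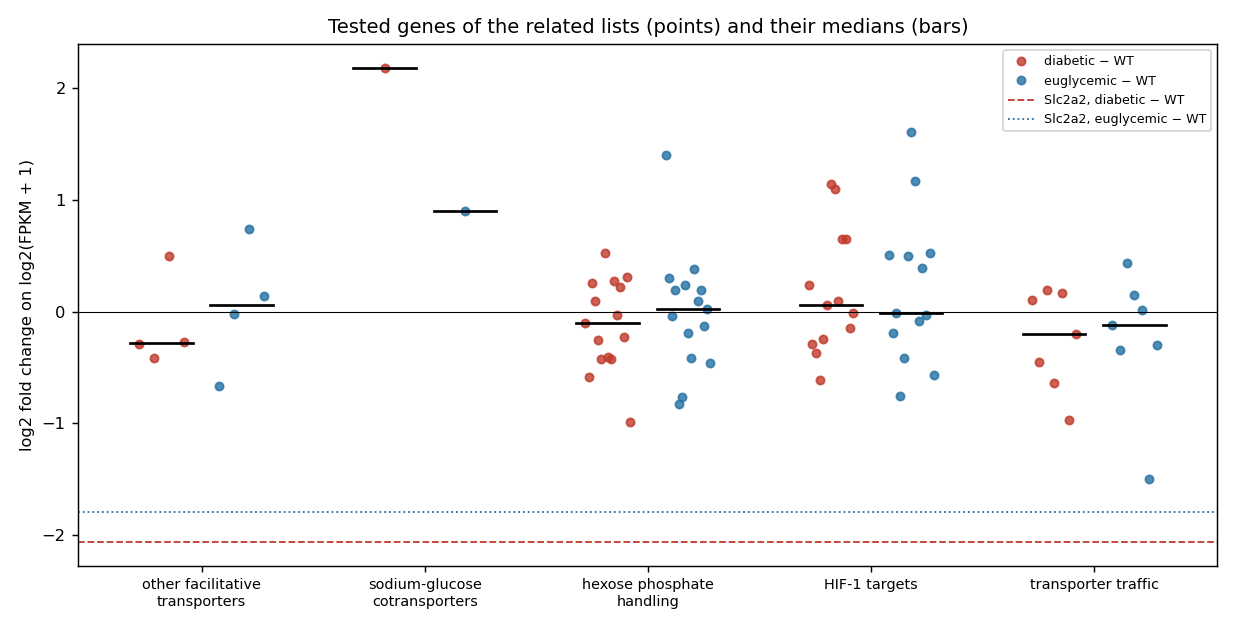
Log2 fold change from WT on log2(FPKM + 1) of each tested gene (points) and the median (bars) in 5 of the related lists, for diabetic (red) and euglycemic (blue) cells, with dashed and dotted lines at the Slc2a2 values of -2.06 and -1.79. No point lies below the Slc2a2 line of its comparison. The only tested sodium-coupled transporter, Slc5a10, is highest in the diabetic comparison at 2.18, and it passed the FPKM minimum through mutant libraries alone.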

How the data were processed

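GFP+ islet cells were sequenced in 11 libraries (WT n = 3, diabetic n = 4, euglycemic n = 4), and groups were taken from the sample labels. The authors deposited 1 table of FPKM values per gene and library. The study's methods name Tophat and Cufflinks, whereas the submitters' processing notes name HISAT2 2.0.4, StringTie 1.3.0, edgeR and mm10, and which of them made the FPKM is not given in the sources used here. No counts were used: steps in the FPKM of 4930 single-exon genes of at least 500 bases gave each library's depth, with 76.9 to 89.3% of values within 0.02 of a whole step, so that these depths are estimates.

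Of 34745 entries 478 had no symbol, and 17 repeated symbols were dropped. Genes with at least 1 FPKM in at least 3 libraries (11251) were fitted on log2(FPKM + 1) with limma 3.58.1 (R 4.3.3) over all 11 libraries, with a trended variance and Benjamini-Hochberg adjustment over all of them, in 4 contrasts. Fold changes on this scale understate those of low genes. Slc2a3, Hk1 and Hk2, below that minimum, had two-sided exact permutation tests. The script was tested on simulated data. Other filters, pseudocounts, scalings (TPM, median of ratios, sum without the 50 highest genes), library weights, a replicate block and leaving out each library were tried. Replicate numbers did not pair the libraries (mean correlation of deviations -0.13 over 10 same-numbered pairs, 0.04 over 30 others).

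The members and the gene lists were chosen with earlier results of these data known. Related genes were named by a rule: the highest mean in each list, the 2 largest changes in diabetic against WT among tested genes, and any called gene. It named 16 genes, of which the single-gene results of 4 are not reported here. The genes most like a member were the 3 with the highest Pearson r of log2(FPKM + 1). Promoters came from RefSeq (GRCm38.p6), which matched 6 of the 7 genes (not Slc2a3) in the table used, and gene positions from GENCODE vM21.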

Additional observations from a re-analysis of the deposited data

How the results depend on the processing

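Slc2a2 kept its direction in every alternative run, from -2.16 to -1.94 (diabetic against WT), -1.95 to -1.61 (euglycemic) and -2.01 to -1.82 (both) when 1 library was left out. The replicate numbers only name libraries. With a replicate block, 45 genes were called in diabetic against WT, 20 in euglycemic against WT, 0 between mutant groups and 53 in both against WT, and Slc2a2 lost its euglycemic call (-1.73, adjusted p = 0.0531), leaving 0 of the 7 genes called there, as without WT replicate 2 (0 to 1 members over the libraries left out). The cause was not tested. The count of all genes called (109, 62, 1 and 118) was less stable. With no filter it was 22, 13, 0 and 23, with library weights 551, 2287, 1212 and 1116, and at an unadjusted p with the same fold 929, 1116, 1355 and 779. With a pseudocount of 0.01 it was 52 (diabetic), 0 (between mutant groups) and 76 (both), and with only the groups compared 17 (euglycemic) and 6 (between mutant groups). Between mutant groups it was also 0 with a mean FPKM of at least 1, a pseudocount of 0.1, TPM and median of ratios. Leaving out 1 library gave 23 to 209, 10 to 532, 0 to 380 and 28 to 179. With TPM the median of all genes (log2, diabetic minus euglycemic) was 0.14, against 0.01 as reported, and the split of diabetic calls went from 53 higher of 109 to 49 higher of 77.

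Small differences changed sign. Slc2a1 in diabetic against WT was 0.10 with library weights. Diabetic minus euglycemic, it was 0.0391 and 0.0455 with pseudocounts of 0.1 and 0.01, 0.13 with TPM, 0.13 without the 50 highest genes, 0.37 with library weights and 0.28 without diabetic replicate 1 and euglycemic replicate 4, an alternative chosen after seeing the data. G6pc2, diabetic minus euglycemic, was 0.0353 with TPM and 0.0905 without the 50 highest genes. Without the same pair of libraries Slc2a3 and Hk1, diabetic minus euglycemic, were -0.0168 and -0.0556, and the Slc2a2 calls held. Leaving out 1 library, Slc2a1 ranged from -0.36 to 0.0742 (diabetic), -0.39 to 0.22 (euglycemic), -0.36 to 0.26 (between mutant groups) and -0.36 to 0.0768 (both), G6pc3 from -0.24 to 0.0034 (diabetic) and -0.0410 to 0.12 (both), and, between mutant groups, G6pc2 from -0.37 to 0.13, Slc2a3 from 0.0324 to 0.17 and Hk1 from 0.0491 to 0.27. Without that pair of libraries G6pc2 was -0.45 between mutant groups. Hk1 in both mutant groups against WT reached 0.05 in 5 alternatives: a pseudocount of 0.1 (exact permutation p = 0.0303), limma with no filter (unadjusted p = 0.0241), without diabetic replicate 3 (exact permutation p = 0.05), without euglycemic replicate 4 (0.0167) and without that pair of libraries (0.0119). With limma and no filter, Hk1 in diabetic (unadjusted p = 0.0171) and Slc2a3 in euglycemic libraries (0.0427) also passed against WT. Depth limits Slc2a3, Hk1 and Hk2, whose values rest on few fragments.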
